A study of Mus musculus with 20 samples.

Results

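The genes described here are 34 genes of macrophages and other myeloid cells, read out of the 25869 genes of the deposited table by their mouse gene symbols, and all 34 were present in it. They encode the lysosomal and killing proteins *Lyz2*, *Cd68*, *Ctss*, *Laptm5*, *Mpeg1*, *Cybb* and *Ncf1*, the receptors *Csf1r*, *Cx3cr1* and *Ccr2*, the Fc receptor and adaptor system *Fcgr1*, *Fcer1g*, *Tyrobp* and *Trem2*, the scavenger, mannose and LPS receptors *Cd14*, *Mrc1*, *Cd163*, *Marco* and *Msr1*, the C-type lectins *Clec7a*, *Clec4d* and *Clec4n*, the inhibitory receptors *Sirpa*, *Lilrb4a* and *Cd300lf*, the C1q chains *C1qa*, *C1qb* and *C1qc*, the markers *Adgre1*, *Aif1* and *Ms4a7*, and the secreted proteins *Pf4*, *S100a8* and *S100a9*. RNA was sequenced from 20 mouse libraries, which were 10 of mouse embryonic fibroblasts (MEFs), 6 of lymphoma cell lines, 2 of primary tumours and 2 of preB-ALL. The MEFs, fibroblasts grown from E14 embryos, were WT (2 libraries, numbered 11 and 13) or *dCas9a-SAM* KI/+, with a dCas9 that activates the gene its guide points to, with no guide (2), the non-targeting guide sgNT (2) or guides for *Bcl-2* (sg*Bcl-2*, 4 libraries from 2 MEF lines). The lymphoma lines and tumours carried *Eµ-Myc*, which drives *Myc* in B cells, *dCas9a-SAM* KI/+ and sg*Bcl-2*. They arose in irradiated C57BL/6-Ly5.1 recipients of transduced foetal liver stem and progenitor cells, so that a tumour can also hold cells of the recipient. Each line stands for 1 mouse, 4 lines were IgM-positive (14_179_IgMp, 15_180_IgMp, 16_202_IgMp and 17_213_IgMp, by the names in their titles) and 2 were IgM-negative (18_214_IgMn and 19_216_IgMn). The titles and descriptions of tumour libraries 20 and 21 give opposite mouse numbers, those of 14_179_IgMp and 15_180_IgMp, so neither tumour was paired in the main test. Both tumours are labelled IgM-positive, and the main test set them against all 6 lines. The preB-ALL libraries carried BCR-ABL1 (p190) and are named as in their titles, P190CreERLSLErg and P190RagCreErg. By these titles the 2 libraries differ in genotype, in the Cre and Erg parts of the name. They were fitted as 1 group, so that this difference and the spread of replicates cannot be told apart. They were made with another kit in another sequencing run, so that tumour type and run cannot be told apart.

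Macrophages grow and survive on CSF1, which binds the receptor encoded by *Csf1r*, and the transcription factor PU.1, encoded by *Spi1*, is needed for their development. They engulf particles through Fc, scavenger and lectin receptors, signal through the adaptors encoded by *Fcer1g* and *Tyrobp*, kill with lysozyme and with the oxidase whose parts include the products of *Cybb* and *Ncf1*, and secrete the C1q chains that start the classical complement pathway. Several of these genes, among them *Laptm5*, *Ctss*, *Cybb* and *Ncf1*, are also used by B cells, and *Sirpa* and *Cd14* are also used by cells outside the blood.

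The sequence before the transcription start is shown for 4 members. *Laptm5* and *Ctss* took most of the members' reads in the lymphoid libraries, and *C1qb* and *C1qc* were read at over 1 CPM in only 1 of the 20 libraries. The RefSeq promoter table of GRCm38.p6 held 25 of the 34 members, and the 250 bases upstream of the start are printed 5′ to 3′, with each copy of GAGGAA or of its reverse complement TTCCTC, the core of a PU.1-type site, in capitals. They lie at chr4:130913066-130913315, plus strand for *Laptm5*, chr3:95526536-95526785, plus strand for *Ctss*, chr4:136886201-136886450, minus strand for *C1qb* and chr4:136892915-136893164, minus strand for *C1qc*.
Laptm5: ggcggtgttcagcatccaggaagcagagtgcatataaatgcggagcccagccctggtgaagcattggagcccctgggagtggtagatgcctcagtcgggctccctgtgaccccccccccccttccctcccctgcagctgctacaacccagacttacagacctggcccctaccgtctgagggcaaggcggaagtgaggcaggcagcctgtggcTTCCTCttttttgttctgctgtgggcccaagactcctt
Ctss: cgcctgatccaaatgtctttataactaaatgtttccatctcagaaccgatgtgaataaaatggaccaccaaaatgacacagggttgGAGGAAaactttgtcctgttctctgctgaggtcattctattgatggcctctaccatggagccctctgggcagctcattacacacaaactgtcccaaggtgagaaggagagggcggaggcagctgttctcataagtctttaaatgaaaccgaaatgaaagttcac
C1qb: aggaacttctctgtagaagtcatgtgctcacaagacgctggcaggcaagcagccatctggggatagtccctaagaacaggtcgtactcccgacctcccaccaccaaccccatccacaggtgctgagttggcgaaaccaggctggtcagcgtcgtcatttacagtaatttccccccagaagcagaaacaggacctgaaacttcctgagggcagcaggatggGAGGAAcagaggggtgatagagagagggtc
C1qc: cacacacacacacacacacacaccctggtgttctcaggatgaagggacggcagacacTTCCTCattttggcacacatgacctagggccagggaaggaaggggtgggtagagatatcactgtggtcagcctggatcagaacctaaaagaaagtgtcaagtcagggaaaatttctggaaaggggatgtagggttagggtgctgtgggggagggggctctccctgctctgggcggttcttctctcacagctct
The 6 letters, on either strand, were in the 250 bases of 15 of the 25 members with a promoter and of 6986 of all 27025 genes with one (60.0% and 25.9%). The nearest copy began 38 bases before the start of *Laptm5*, 164 before that of *Ctss*, 30 before that of *C1qb* and 193 before that of *C1qc*. The window of *Mrc1*, the mannose receptor, held 3 copies. No copy was in the windows of *Lyz2*, *Mpeg1*, *Cybb*, *Ncf1*, *Fcer1g*, *Ms4a7*, *Cd163*, *Cx3cr1*, *Ccr2* and *S100a9*. A match is a run of letters and not a bound site.

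Values are CPM, which are reads of a gene for each 1000000 reads counted on genes. Whole reads could be recovered from them, and the libraries held 12474885 to 26678417 reads, so that 3 reads, taken as the limit of detection, stand for 0.112 to 0.240 CPM. The labelled cell types were checked first. The 12 fibroblast genes summed to 9462 to 17108 CPM in 9 of the MEF libraries and to 2681 in WT library 13, which therefore stood apart. Whether that library holds a mixed culture, or a sample other than its label gives, was not tested, so that its values, and those of the WT group in the comparison with sgNT, are those of a library labelled WT MEF. The same 12 genes summed to 1.99 to 6.78 in the lines, to 2.94 to 3.20 in the tumours and to 1675 to 3732 in the preB-ALL libraries, where 10 of the 12 had at least 3 reads. The 12 B cell genes summed to 1328 to 2589 CPM in the lines, 6151 to 6481 in the tumours and 4786 to 9147 in preB-ALL, against 13.2 to 27.0 in the 9 MEF libraries.

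Over the 34 myeloid genes, the summed level was 47.9 to 108 CPM in the 9 MEF libraries, 671 in WT library 13, 141 to 270.0 in the lines, 698 and 495 in tumour libraries 20 and 21, and 557 and 872 in preB-ALL. Few genes carried these sums. *Sirpa*, the inhibitory receptor for CD47, gave most of the reads in the 9 MEF libraries, with 29.4 to 90.2 CPM. *Laptm5*, a lysosomal membrane protein of blood cells, and *Ctss*, the cysteine protease cathepsin S, together gave 89.6 to 96.8% of the members' reads in the lines, 93.2 to 93.8% in preB-ALL and 75.2 to 81.8% in the tumours, but 19.2% in WT library 13. Without these 2 genes the sum was 5.55 to 18.1 CPM in the lines, 34.3 to 59.0 in preB-ALL, 123 to 127 in the tumours and 542 in WT library 13. The 5 largest members held 63.9% of the members' reads in WT library 13 and 92.1 to 97.4% in the other MEF libraries. In bulk RNA, fewer cells of a type and less RNA per cell cannot be told apart.

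**Figure D1:**
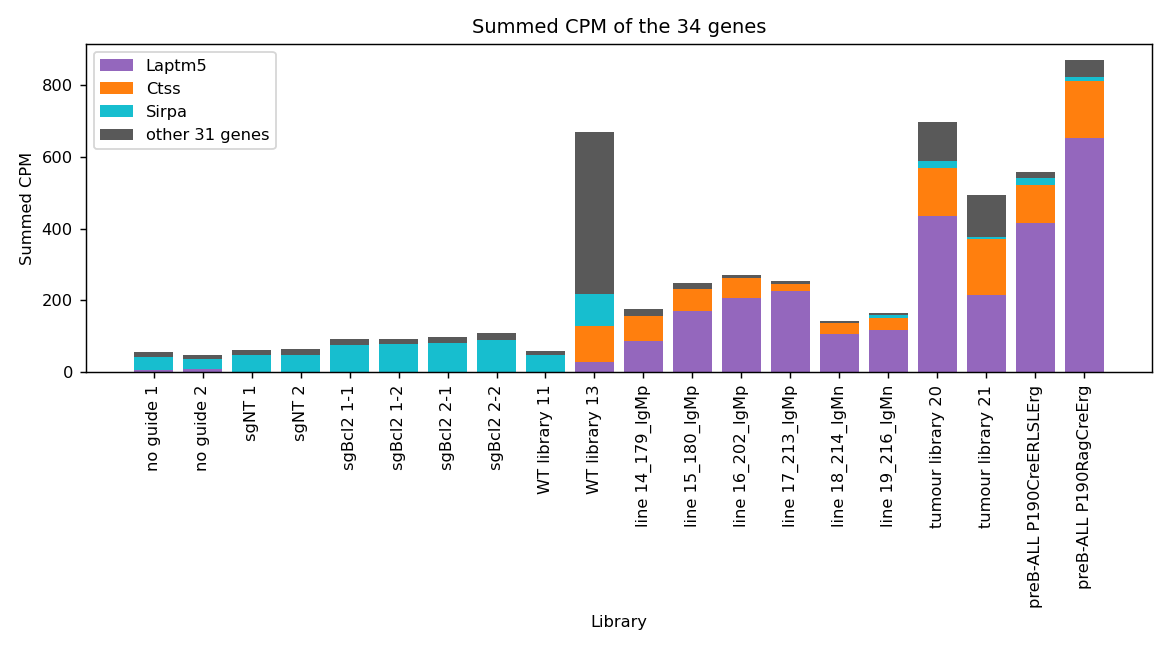
Summed CPM of the 34 genes in each of the 20 libraries (y axis, linear, from 0), with the parts of *Laptm5*, *Ctss*, *Sirpa* and the other 31 genes stacked. *Sirpa* fills the bars of 9 MEF libraries, *Laptm5* and *Ctss* those of the lymphoid libraries, and WT library 13 (671 CPM) has most of its bar in the other 31 genes.

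**Figure D2:**
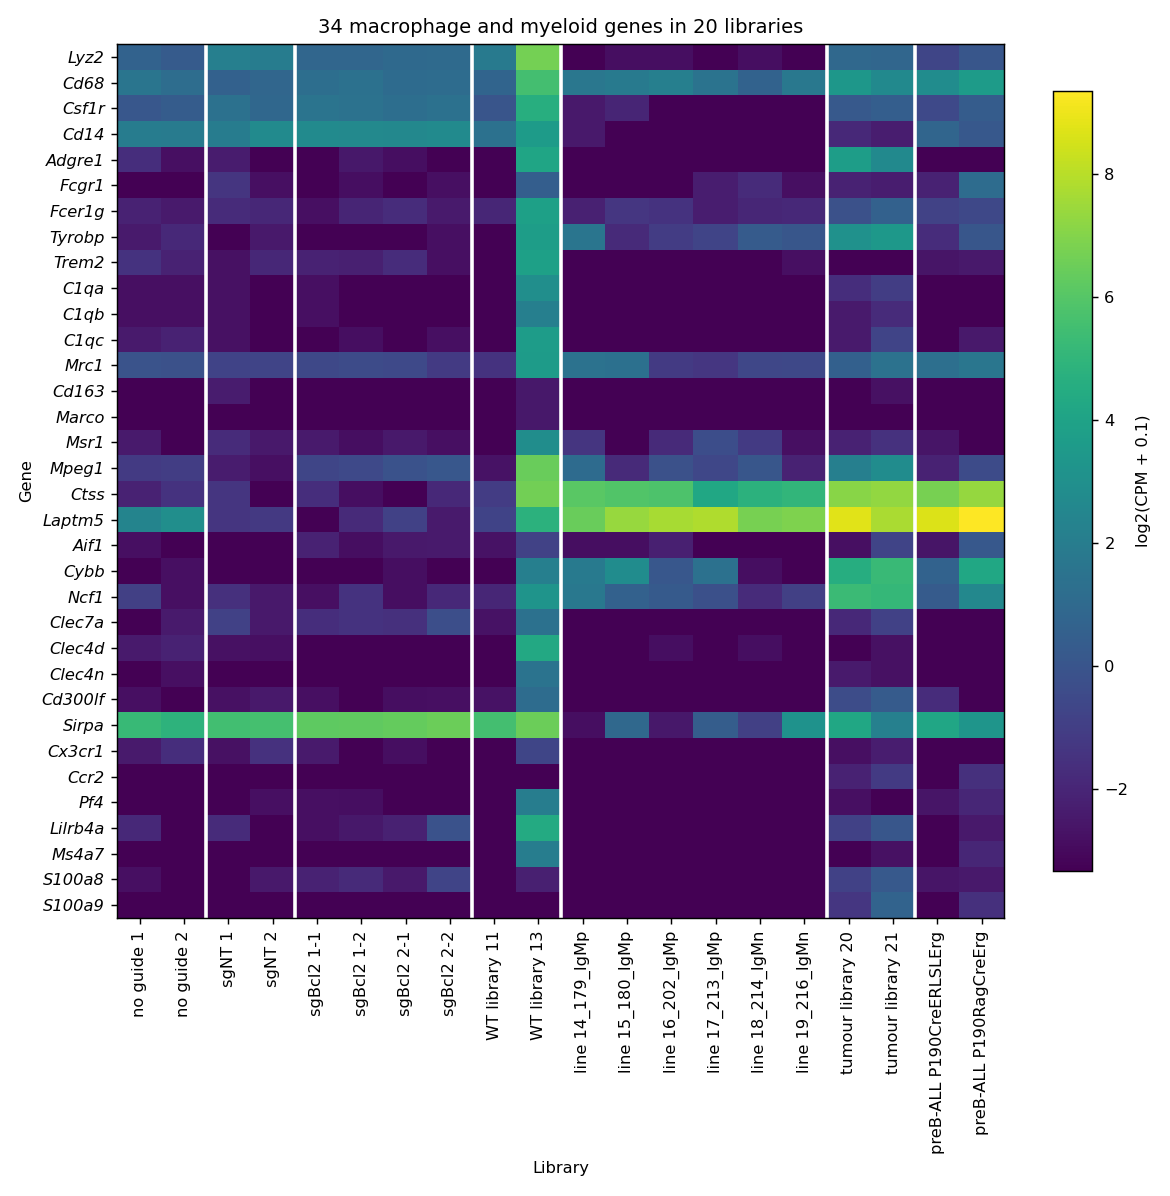
Level of each of the 34 genes (rows) in each of the 20 libraries (columns, groups separated by white lines), as log2(CPM + 0.1). WT library 13 stands out from the other MEF libraries in most rows, and the tumour libraries from the lines in *Adgre1*, *Ncf1*, *Cybb* and *Tyrobp*.

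WT library 13 held macrophage transcripts of nearly every class. It had 1 CPM or more of 27 of the 34 genes, whereas 6 of the 34 reached that level in any of the other 9 MEF libraries (*Lyz2*, *Cd68*, *Csf1r*, *Cd14*, *Laptm5* and *Sirpa*). It was above each of the other 9 for 29 of the 34 genes, and for 28 of the 30 members with at least 10 reads over the 10 libraries. Of all genes with that many reads, 40.3% were above each of the other 9 as well. It was at least 10-fold above the highest of the other 9 for 21 of the same 30 members and for 1.5% of all such genes. These are values of 1 library without a replicate, and the intervals below cover counting error only.

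Among the lysosomal and killing genes, *Lyz2*, which encodes lysozyme, had 104 CPM in WT library 13 and 1.16 to 4.34 CPM, median 1.94, in the others. That is 43.9-fold (95% interval 39.9 to 48.4) over the pooled other 9 libraries. *Ctss* had 100.4 CPM, against 0 to 0.371 CPM, median 0.171, and was 652-fold (95% interval 461 to 955) higher. *Mpeg1*, the pore-forming perforin-2, had 86.3 CPM, and the others had 0.0414 to 0.986 CPM, median 0.387, and it was 195-fold (95% interval 158 to 243) higher than in these pooled. *Cd68*, a lysosomal glycoprotein, had 47.9 CPM against 1.41 to 2.93 CPM, median 2.14. All 4 were thus far outside the range of the other MEF libraries. The oxidase genes *Cybb* and *Ncf1* had 4.33 and 9.23 CPM, and no other MEF library was above 0.0430 and 0.431 CPM. *Laptm5* had 28.3 CPM, and here the libraries without a guide stood above the rest, with 5.21 and 7.53 CPM against 0 to 0.477 in the remaining 7.

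The receptors and adaptors were above the other libraries as well. *Csf1r*, the CSF1 receptor (chromosome 18, 61105572 to 61131139 of GRCm38.p6), had 24.4 CPM in WT library 13 and 0.902 to 2.81 CPM, median 2.26, in the others. Its ligand *Csf1* had 329 CPM there, below the 583 to 1115 CPM of the other 9. The chemokine receptors were low in all MEF libraries. *Cx3cr1*, the fractalkine receptor, had 0.532 CPM, which is 14 reads, in WT library 13, and *Ccr2*, the receptor of CCL2, had 0 reads in all 10 MEF libraries. *Fcer1g*, the common Fc receptor chain, *Tyrobp*, the adaptor DAP12, and *Trem2*, a lipid receptor that signals through it, had 14.7, 13.0 and 14.7 CPM. No other MEF library was above 0.202, 0.172 and 0.259 CPM of them. *Fcgr1*, the high-affinity IgG receptor, had 1.29 CPM, against at most 0.292.

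Of the scavenger, mannose and LPS receptors, *Mrc1* had 12.5 CPM against 0.265 to 0.862 CPM, median 0.562, and *Msr1* had 7.22 against 0 to 0.195 CPM, median 0.0808. *Cd14*, the LPS co-receptor, was the least different of those above the range, with 12.3 CPM against 2.55 to 6.66 CPM, median 5.86, or 2.37-fold (95% interval 2.09 to 2.69). *Cd163* and *Marco*, which mark some resident macrophages, had 2 reads each. The lectin *Clec4d* had 19.9 CPM, the inhibitory receptor *Lilrb4a* 21.6, *Clec4n* 2.74, *Clec7a*, the beta-glucan receptor, 2.55 and *Cd300lf* 2.17. Highest among the other 9 were 0.129, 0.815, 0.0430, 0.729 and 0.0828 CPM for these 5 genes in the same order. *Sirpa*, with 90.2 CPM in WT library 13, was within the range of the sg*Bcl-2* libraries. It was above the 29.4 to 48.0 CPM of the other MEF libraries without sg*Bcl-2*.

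The C1q chains were read almost only in this library. *C1qa* had 200 reads there and 4 in the other 9 MEF libraries together, *C1qb* had 114 and 4, and *C1qc* had 336 and 8. The 3 genes lie next to one another on chromosome 4, and per kilobase of exon they had 7.31, 3.98 and 10.6 CPM in WT library 13. *Adgre1*, which encodes F4/80, had 17.4 CPM against at most 0.215, and *Aif1*, which encodes IBA1, had 0.456 against at most 0.130. *Ms4a7* had 105 reads and none in the other 9, which is at least 276-fold higher when the other 9 together are set at the limit of 3 reads. *Pf4*, a chemokine of platelets and some macrophages, had 4.07 CPM, while *S100a8* and *S100a9*, the calprotectin chains of neutrophils and monocytes, had 3 and 0 reads. Per kilobase, the order in WT library 13 was led by *Lyz2* (79.0 CPM per kilobase), *Ctss* (73.9), *Cd68* (38.1) and *Tyrobp* (23.0), and in the other 9 by *Sirpa* (13.9), *Cd14* (3.10) and *Lyz2* (1.84).

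**Figure D3:**
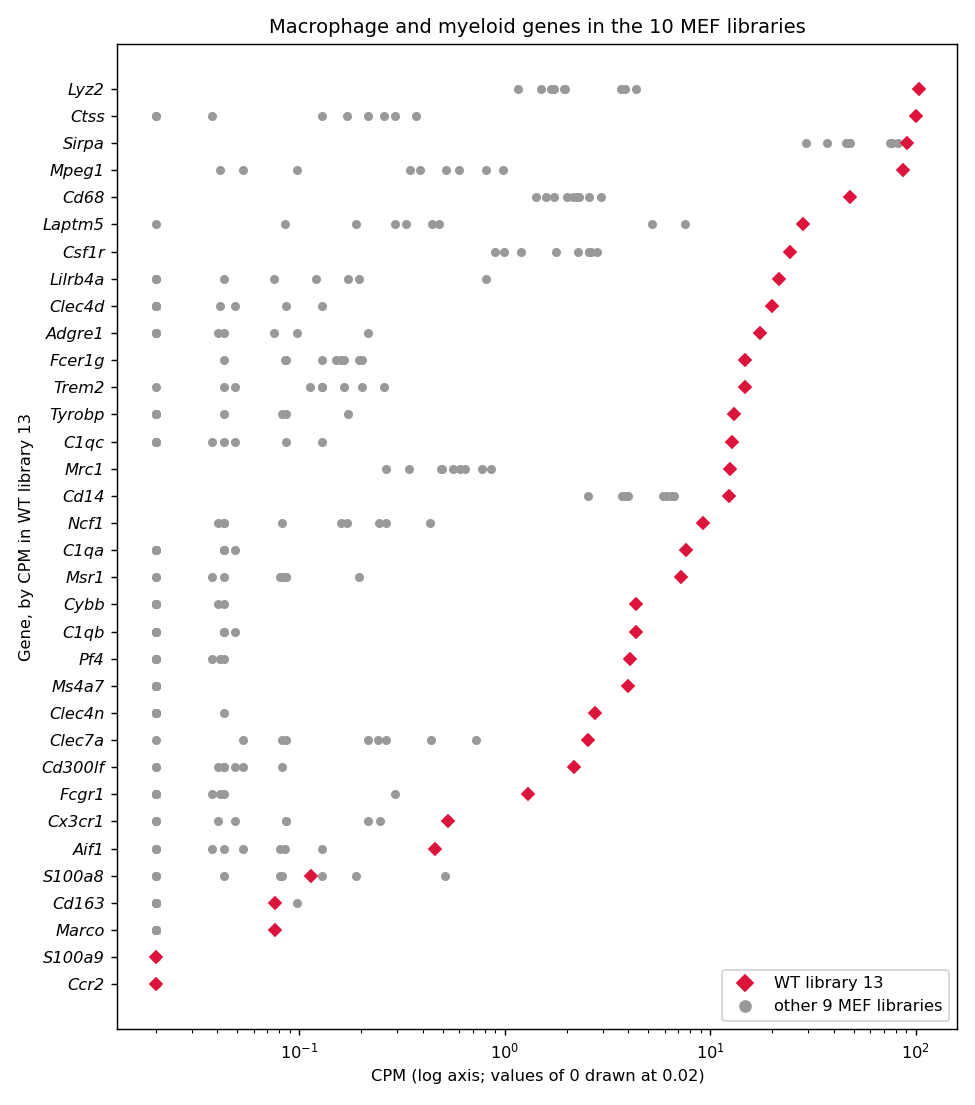
CPM (x axis, log scale, values of 0 drawn at 0.02) of the 34 genes (rows) in WT library 13 (diamonds) and in the other 9 MEF libraries (grey points). The diamond lies to the right of all grey points for 29 genes, and inside or at their edge for *Sirpa*, *S100a8* and *Cd163*.

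Of 36 further myeloid genes, 27 were above each of the other 9 MEF libraries in WT library 13 and 17 at least 10-fold above their highest. *Ly6c2*, with 0.152 CPM against 0.731 to 6.65, and *Tlr4*, with 23.5 against 29.4 to 40.4, were below all 9. These were named after their values were seen. The 3 with the most reads were *Axl*, *Gpnmb* and *Lgals3*, which fibroblasts express too. *Axl* had 817 CPM, inside the range of the others (755 to 1070.4), and *Gpnmb* had 1100.2 against at most 539 and *Lgals3* 644 against at most 423. *Spi1* had 5.70 CPM against at most 0.0828, and was chosen to be named after its values were seen. The 14 neutrophil granule genes summed to 2.01 CPM in WT library 13 and to 0.371 to 64.4 in the others, where *Lcn2* gave most of the reads, and *Ngp*, *Ltf* and *Ctsg* had 0 reads in WT library 13. All 12 fibroblast genes were detected in it, 6 of them below each of the other 9, with *Col1a1* at 352 CPM against 3682 to 5134. Of the 8 endothelial genes 5 were above all 9, while *Eng*, the one with the most reads, was below all 9 (60.3 CPM against 61.8 to 139.9). The list summed to 131 CPM against 77.4 to 159, with *Vwf* at 15.5 against at most 1.08 and *Kdr* at 41.0 against at most 9.85. Of the 14 T and NK cell genes 5 were above all 9 libraries and 2 at least 10-fold, *Lck* at 6.12 CPM against at most 0.414 and *Cd3g* at 1.06 against at most 0.0431, and 7 had 0 reads. *Thy1*, the one of the list with the most reads, was below all 9, at 49.96 CPM against 173 to 1577. Of the B cell genes 5 of 12 were above all 9, among them *Blnk* at 4.07 CPM against at most 0.645, and of the dendritic cell genes 5 of 10, among them *Bst2* at 81.9 against at most 24.8, with 1 below all 9. These counts stand beside the 40.3% of all genes with at least 10 reads that were above all 9. The part of the genes of these other cell types in the values of WT library 13 was not tested.

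The sgNT MEFs were compared with the WT MEFs to see whether the CRISPRa system by itself changes gene expression. No member was called in this comparison by limma, with 7 of the 34 genes passing the filter on low values, and 0% of all 14560 tested genes were called. Of these, 589 had an unadjusted p under 0.05, and edgeR called 0 and DESeq2 88. The further lists held 0 called genes by limma as well. At an unadjusted p under 0.05 there were 0 members by limma, 1, *Laptm5*, by edgeR and 5, *Lyz2*, *Cd68*, *Csf1r*, *Mrc1* and *Laptm5*, by DESeq2, which called *Laptm5* after adjustment. The median log2 fold change, sgNT minus WT, was -1.84 over the 7 members and 0.02 over all tested genes. *Cd68*, *Lyz2* and *Laptm5* had means of 1.58, 4.09 and 0.312 CPM with sgNT and 24.8, 53.8 and 14.4 CPM in WT. The 3 members with the highest mean CPM were *Sirpa* (log2 fold change -0.47, SE 0.32, adjusted p = 0.800), *Lyz2* (log2 fold change -2.23, SE 1.62, adjusted p = 0.800) and *Cd68* (log2 fold change -2.42, SE 1.65, adjusted p = 0.800). The result rests on which WT library is used. With WT library 13 alone as the WT group, a gene could pass the filter through that library only. There 28 members were tested, and for those near 0 reads with sgNT the direction was set by the filter. *Mpeg1*, named after its values were seen, had 2 and 1 reads with sgNT and passed through WT library 13 only (log2 fold change -8.91, SE 0.36). With WT library 11 alone 6 members were tested, with log2 fold changes, sgNT minus WT, of -0.08 (*Cd68*) to 1.10 (*Csf1r*). The same 6 had -4.72 (*Cd68*) to -0.82 (*Sirpa*) with WT library 13 alone. In both fits the lone library is assumed to vary like the sgNT libraries.

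Guides for *Bcl-2* were compared with sgNT in *dCas9a-SAM* MEFs. Of 8 members that passed the filter, *Sirpa* and *Mpeg1* were higher with sg*Bcl-2* and *Lyz2* was lower. Of all tested genes, 6.61% were higher and 4.24% lower, and without a scaling factor 710 of 1847 called genes were higher in place of 970 of 1592. *Sirpa* had 45.5 and 48.0 CPM with sgNT and 75.0, 77.0, 81.7 and 90.2 with sg*Bcl-2* (log2 fold change 0.88, SE 0.10, adjusted p = 0.00271). *Mpeg1* was near the limit of detection with sgNT, at 0.0975 and 0.0414 CPM, and had 0.518, 0.602, 0.808 and 0.986 CPM with sg*Bcl-2* (log2 fold change 2.33, SE 0.37, adjusted p = 0.00937). It passed the filter through the sg*Bcl-2* libraries only. *Lyz2* had 4.34 and 3.85 CPM with sgNT and 1.68, 1.73, 1.94 and 1.97 with sg*Bcl-2* (log2 fold change -1.03, SE 0.18, adjusted p = 0.0127). The sg*Bcl-2* and sgNT libraries did not overlap for these 3 genes and for *Cd68*, which was not called. Over 16 alternatives *Sirpa* kept its call in 15 and *Mpeg1* and *Lyz2* in 13 each. The 4 genes without overlap are among the 17 members with at least 10 reads over the 6 libraries, and 41.4% of all such genes did not overlap either. The libraries without a guide gave another order, with 37.2 and 29.4 CPM of *Sirpa*, 0.345 and 0.387 of *Mpeg1* and 1.51 and 1.16 of *Lyz2*, so that they were below both groups for *Sirpa* and *Lyz2* and between them for *Mpeg1*.

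The other 5 members tested were not called, with log2 fold changes of 0.15 (*Mrc1*) to 0.58 (*Cd68*). *Cd14*, *Csf1r* and *Cd68*, the 3 of highest mean CPM, had 6.26 ± 0.308 CPM (SD, n = 4), 2.57 ± 0.228 CPM (SD, n = 4) and 2.25 ± 0.232 CPM (SD, n = 4) with sg*Bcl-2*. Over the 8 members the median log2 fold change was 0.44, against -0.01 over all tested genes. Among the further myeloid genes 3 of 13 tested were higher and 0 lower, with *Lgals3* (log2 fold change 1.06, SE 0.12, adjusted p = 0.00311) and *Axl* (log2 fold change 0.44, SE 0.10, adjusted p = 0.0299) among the 3 with the most reads and *Gpnmb* not called (log2 fold change 0.20, SE 0.09, adjusted p = 0.169). Of the myeloid transcription factors 2 of 9 were higher, *Cebpb* (log2 fold change 1.26, SE 0.20, adjusted p = 0.00906) and *Cebpd* (log2 fold change 1.00, SE 0.14, adjusted p = 0.00611), and 1 was lower. Of the fibroblast genes 3 of 12 were higher, *Fbn1*, *Twist2* and *Dcn*, and of the endothelial genes 2 of 5 were lower, *Eng* and *Emcn*, and their part in the member values was not tested. Of the list of ligands of member receptors, which also held the complement genes *C1ra*, *C1s1* and *C3*, 2 of 11 tested were higher, *Cd47* and *C3*. The 3 with the most reads, *Csf1*, *Ccl2* and *Ccl7*, were not called, and *Ccl2* had an adjusted p of 0.0512. With the MEF line as a replicate block all 3 calls of members held. The calls rest on 2 sgNT libraries: without either of them 1 member, *Sirpa*, was called, and with all 10 MEF libraries in the fit, whose spread includes WT library 13, 0 were called.

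**Figure D4:**
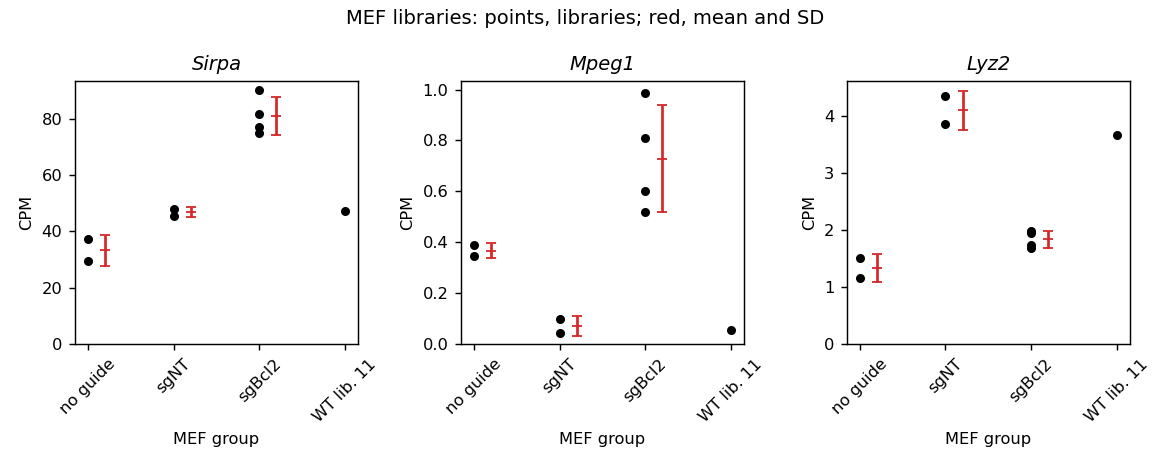
CPM (y axes, linear, from 0) of *Sirpa*, *Mpeg1* and *Lyz2* in the MEF libraries (black points, 1 per library), by group, with the mean and SD of each group of 2 or more in red; WT library 13 is left out. The sg*Bcl-2* points lie above the sgNT points for *Sirpa* and *Mpeg1* and below them for *Lyz2*.

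Primary tumours were compared with the lymphoma lines, which were grown from such tumours. In the lines, *Laptm5*, *Ctss* and *Cd68* had 1 CPM or more in all 6, 9 members reached it in any line, and 16 of the 34 had 0 reads in all 6. The tumours had 1 CPM or more of 12 members in both libraries. Both tumours were above all 6 lines for 22 of the 34 genes and below them for 0. Of the 24 members with at least 10 reads over these 8 libraries the tumours were above for 18, and of all such genes for 22.3%. By limma, 11 of the 16 members that passed the filter were higher in tumours and 0 lower, with 9.47% of all tested genes higher. The median log2 fold change was 3.11 over the 16 members and 0.03 over all 13106 tested genes. As 7 of the 11 passed only through the tumours, their calls were favoured by the filter, and the other 18 members were too low to test, with at most 1.55 CPM (*S100a9*) in either tumour.

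*Adgre1* had the largest fitted log2 fold change of the tested members. Both tumours had it, at 13.3 and 6.33 CPM, and all 6 lines had 0 reads (log2 fold change 6.47, SE 0.40, adjusted p = 0.000167). It passed the filter through the tumours only. The fitted value depends on the pseudocount where a group is at 0. Over 19 alternatives it was 4.22 to 10.79, which overlaps the 3.98 to 5.54 of *Ncf1*. The order of these genes by size of change is therefore not settled. The oxidase subunit genes came next in fitted value. *Ncf1*, which encodes p47phox, had 39.6 and 34.2 CPM in the tumours and ranged from 0.195 to 3.24 CPM, with a median of 0.923, in the lines (log2 fold change 5.18, SE 0.82, adjusted p = 0.00539). *Cybb*, the membrane subunit gp91phox, had 24.0 and 38.5 CPM and ranged from 0 to 7.01 CPM, with a median of 1.79, in the lines, without overlap, and was not called by limma (log2 fold change 4.86, SE 1.64, adjusted p = 0.0721), edgeR or DESeq2, while limma-voom called it. *Tyrobp* had 8.32 and 10.7 CPM and ranged from 0.187 to 2.96 CPM, with a median of 0.723, with 14_179_IgMp highest (log2 fold change 3.44, SE 0.84, adjusted p = 0.0254). *Fcer1g*, which works beside it, had 0.789 and 1.45 CPM in the tumours and ranged from 0.0996 to 0.300 CPM, with a median of 0.164, in the lines (log2 fold change 2.01, SE 0.45, adjusted p = 0.0187).

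*Lyz2* and *Csf1r* were low in both kinds of sample. *Lyz2* had 1.84 and 1.75 CPM in the tumours and ranged from 0 to 0.0391 CPM, with a median of 0.0187, in the lines (log2 fold change 3.95, SE 0.38, adjusted p = 0.00117). *Csf1r* had 1.05 and 1.30 CPM, and the lines ranged from 0 to 0.150 CPM, with a median of 0 (log2 fold change 3.25, SE 0.50, adjusted p = 0.00495). In neither gene did the groups overlap. *Mpeg1* had 4.34 and 7.08 CPM in the tumours and ranged from 0.129 to 2.07 CPM, with a median of 0.672, in the lines (log2 fold change 3.00, SE 0.86, adjusted p = 0.0422). It lost its call in 12 of the 19 alternatives. The inhibitory receptors *Cd300lf* and *Lilrb4a* had 0.657 and 1.15 CPM and 0.438 and 0.947 CPM and 0 reads in all lines (*Cd300lf*, log2 fold change 3.22, SE 0.37, adjusted p = 0.00180; *Lilrb4a*, log2 fold change 2.85, SE 0.39, adjusted p = 0.00331). *S100a8* had 0.438 and 1.05 CPM and 0 reads in the lines (log2 fold change 2.92, SE 0.41, adjusted p = 0.00344), and *S100a9*, which did not pass the filter, had 0.307 and 1.55 CPM and likewise 0. *Ctss*, named as the last of the 11 after its values were seen, had 137 and 159 CPM and ranged from 18.7 to 69.1 CPM, with a median of 44.1, in the lines (log2 fold change 1.80, SE 0.47, adjusted p = 0.0313). It kept its call in 12 of the 19 alternatives, and the 9 called members other than *Ctss* and *Mpeg1* kept theirs in 14 (*Fcer1g* and *Tyrobp*) to 17 (*Adgre1* and *Lyz2*).

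Of the 5 members that were tested and not called by limma, 3 were called by another tool, *Cybb* and *Cd68* by limma-voom and *Laptm5* and *Cd68* by DESeq2, and edgeR called 0 of the 5. *Laptm5* had 434 and 213.8 CPM against a range from 87.6 to 226 CPM, with a median of 144, in the lines, and the groups overlapped (log2 fold change 1.00, SE 0.40, adjusted p = 0.115). *Cd68* had 10.3 and 6.33 CPM and ranged from 1.48 to 4.28 CPM, with a median of 3.20, in the lines, without overlap (log2 fold change 1.35, SE 0.42, adjusted p = 0.0580). *Sirpa* and *Mrc1* overlapped, with 18.8 and 4.54 CPM and 1.36 and 2.64 CPM in the tumours, 8.79 CPM of *Sirpa* in 19_216_IgMn, and 2.60 and 2.44 CPM of *Mrc1* in 14_179_IgMp and 15_180_IgMp. Several members read in WT library 13 were at or near 0 in the tumours. *C1qa* had 0.219 and 0.399 CPM, *C1qb* 0.0876 and 0.199 CPM and *C1qc* 0.0876 and 0.499 CPM in the tumours, *Trem2* had 0 reads in both, and *Ms4a7*, *Clec4d* and *Pf4* had at most 0.0499 CPM. Per kilobase, *Adgre1* had 3.03 CPM and *C1qc* 0.244 on average in the tumours, and 5.37 and 10.6 in WT library 13. This difference between the 2 kinds of sample was not tested.

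**Figure D5:**
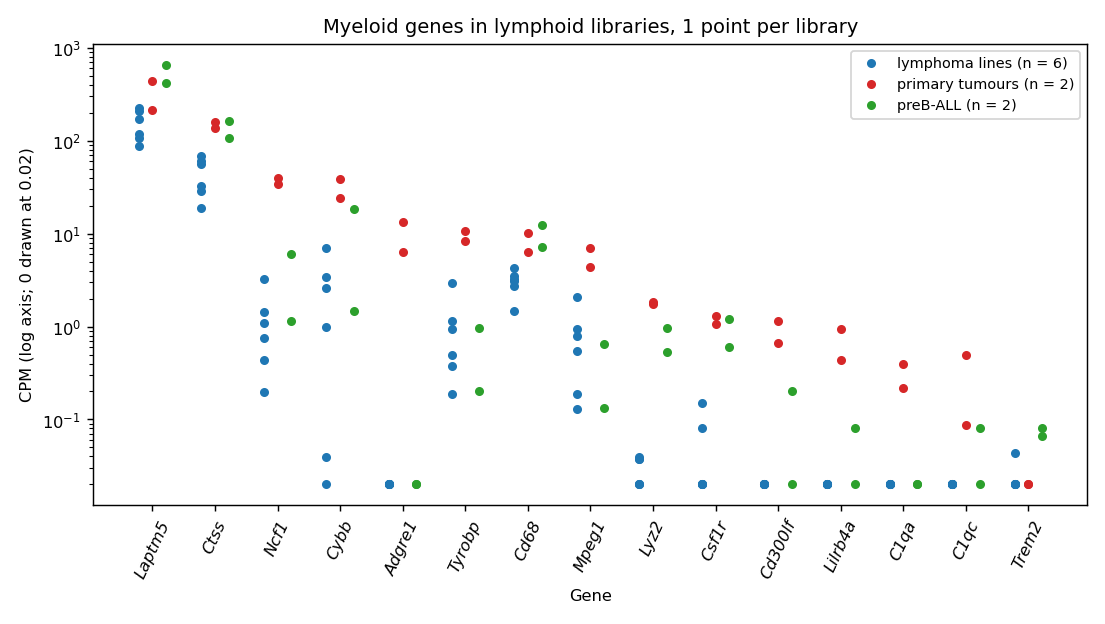
CPM (y axis, log scale, values of 0 drawn at 0.02) of 15 of the genes in the 6 lymphoma lines (blue), the 2 primary tumours (red) and the 2 preB-ALL libraries (green), 1 point per library. Both red points lie above all blue points for *Ctss*, *Ncf1*, *Cybb*, *Adgre1*, *Tyrobp*, *Cd68*, *Mpeg1*, *Lyz2*, *Csf1r*, *Cd300lf*, *Lilrb4a*, *C1qa* and *C1qc*, and overlap them for *Laptm5*.

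Among the 36 further myeloid genes, 12 of the 20 tested were higher in tumours and 0 lower, with a median log2 fold change of 2.68. The 3 with the most reads were *Cyba*, the partner of the *Cybb* product (log2 fold change 2.32, SE 0.64, adjusted p = 0.0388), *Pld4* (log2 fold change 5.27, SE 0.65, adjusted p = 0.00234) and *Ncf4* (log2 fold change 1.31, SE 0.30, adjusted p = 0.0193). *Ly6c2*, named after its values were seen, had 275 and 185 CPM in the tumours and at most 2.19 in the lines. Of the myeloid transcription factors, *Irf8* (log2 fold change 2.01, SE 0.33, adjusted p = 0.00599) and *Irf5* (log2 fold change 1.62, SE 0.33, adjusted p = 0.0143) were among 3 higher of 6 tested, and *Spi1* was not called (log2 fold change 0.13, SE 0.23, adjusted p = 0.724). It had 62.2 and 68.3 CPM in the tumours and 41.9 to 83.0 in the lines, against 5.70 in WT library 13. Genes of other cell types moved with these results. All 12 B cell genes were tested and 8 were higher in tumours, with a median log2 fold change of 1.47, among them *Cd79a* (log2 fold change 1.61, SE 0.29, adjusted p = 0.00883) and *Cd79b* (log2 fold change 1.58, SE 0.25, adjusted p = 0.00526). Of the T and NK cell genes 2 of 6 tested were higher, *Cd2* and *Cd3e*, with 0.613 and 0.549 CPM of *Cd3e* in the tumours. The list summed to 304 to 395 CPM in the tumours and 10.0 to 116 in the lines. *Cd2*, *Thy1* and *Lck* gave most of these sums. They had 158, 169 and 62.2 CPM in tumour library 20 and 255, 12.8 and 32.7 in tumour library 21. Highest among the lines were 22.7, 49.6 and 62.2 CPM in the same order. *Cd3d*, *Cd3g*, *Cd4* and *Cd8a*, named after their values were seen, had at most 0.549 CPM in either tumour. The globin genes *Hba-a1*, *Hba-a2* and *Hbb-bs* were higher as well, and the 8 erythroid genes summed to 3.15 to 5.73 CPM in the tumours and 0.852 to 1.12 in the lines. The 14 neutrophil granule genes summed to 1.97 to 2.79 and 0.0811 to 0.644 CPM, with *Ngp* called and *Ltf*, *Ctsg* and *Mpo* at at most 0.438 CPM. The 5 dendritic cell, 3 endothelial, 3 platelet and 4 fibroblast genes that were tested gave 0 calls, by limma. So did the 5 genes tested of the list of ligands and complement genes, of which *Cd47*, *Apoe* and *Csf1* had the most reads. The part of B cell, T cell and red cell transcripts in the tumour values was not tested.

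Against the 4 IgM-positive lines alone 8 of 16 members and 781 of 12983 genes were higher in tumours. *Ncf1* was then higher by 4.60 on the log2 scale, with an adjusted p of 0.0132 by limma, while *Fcer1g*, *Tyrobp*, *Mpeg1* and *Ctss* were not called, with adjusted p of 0.0641, 0.0567, 0.0773 and 0.0892. With only the 2 lines of the same mice, 14_179_IgMp and 15_180_IgMp, in place of 6, 0 of 16 members and 42 of 12719 genes were called. *Adgre1* was then higher in tumours by 6.51 on the log2 scale, with an adjusted p of 0.0522 by limma, and *Ncf1* by 3.98, with an adjusted p of 0.0652. With the mouse numbers of the titles as a replicate block 13 of 16 members and 1689 of 12719 genes were higher. With those of the descriptions 0 members and 0 genes were called, with an adjusted p of 0.262 for *Adgre1*. Without tumour library 21, 4 of 15 members and 807 of 13739 genes were called, and without tumour library 20, 8 of 19 members and 934 of 13768 genes. Over all 19 alternatives the log2 fold change was 4.22 to 10.79 for *Adgre1* and 3.98 to 5.54 for *Ncf1*.

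The lymphoma lines were compared with preB-ALL as another B lineage tumour. Of 13 members that passed the filter, 6 were lower in the lines and 0 higher, with 22.5% of all tested genes lower. Without a scaling factor, 1691 of 6091 called genes were higher in place of 2914 of 6059, and the median of all genes was -0.42 in place of -0.07. The median log2 fold change over the 13 members was -1.36. *Laptm5* had 416 and 652 CPM in the P190CreERLSLErg and P190RagCreErg libraries, and both were above all 6 lines (log2 fold change -1.50, SE 0.37, adjusted p = 0.0114). *Ctss* had 107 and 161 CPM (log2 fold change -1.36, SE 0.47, adjusted p = 0.0465) and *Cd68* 7.15 and 12.3 CPM (log2 fold change -1.29, SE 0.45, adjusted p = 0.0466), again without overlap. Over 16 alternatives *Ctss* kept its call in 10, and edgeR did not call it, and *Cd68* kept its call in 9. Without the P190RagCreErg library the adjusted p was 0.285 for *Ctss*, 0.266 for *Cd68* and 0.135 for *Laptm5*. Of the 16 members with at least 10 reads over these 8 libraries, 8 did not overlap, as did 50.6% of all such genes. *Cd14*, which had 2 reads in the 6 lines together, all in 14_179_IgMp, had 1.67 and 1.04 CPM (log2 fold change -3.43, SE 0.35, adjusted p = 0.000114). *Csf1r* had 0.601 and 1.20 CPM (log2 fold change -2.65, SE 0.46, adjusted p = 0.00230) and *Lyz2* 0.534 and 0.962 CPM (log2 fold change -2.56, SE 0.31, adjusted p = 0.000297), and these 3 passed the filter through preB-ALL only. *Laptm5* and *Csf1r* kept their calls in 15 of 16 alternatives, *Cd14* in 16 of 16 and *Lyz2* in 15 of 15. The genes of the fibroblast list differed among themselves in preB-ALL. *Col1a1* had 855 and 456 CPM and *Col1a2* 1176 and 526 in the P190CreERLSLErg and P190RagCreErg libraries. *Dcn* had 0 reads in both, against 12.7 to 337 CPM in the 10 MEF libraries, *Postn* had 7.35 and 1.20 against 369 to 1735, and *Twist2* had 1.54 and 0.721 against 56.2 to 309.9. These 5 were named after their values were seen. *Cd14*, *Csf1r*, *Lyz2*, *Cd68*, *Mrc1* and *Sirpa* were detected in all 10 MEF libraries, and so was the ligand *Csf1*. The part of fibroblast transcripts in the preB-ALL values of all these genes was not tested.

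The 7 members not called by limma had log2 fold changes of -3.68 (*Sirpa*) to 0.95 (*Mpeg1*), and *Sirpa*, *Cybb* and *Ncf1* had the highest means. Of these, limma-voom called *Sirpa*, and the groups did not overlap for *Sirpa* and *Fcer1g*. *Sirpa* had 18.0 and 9.54 CPM, *Cybb* 1.47 and 18.4 CPM and *Ncf1* 1.14 and 6.01 CPM, with the P190RagCreErg library the higher for the oxidase genes. *Fcgr1* differed between them too, with 0.134 and 2.16 CPM. No preB-ALL library had a read of *Adgre1*, *C1qa* or *C1qb*. *Adgre1* was thus read in WT library 13 and in the tumours, and at no more than 0.215 CPM in the other 17 libraries. Among the further myeloid genes 10 of 22 were lower in the lines and 0 higher. *Pld4* was called (log2 fold change -5.23, SE 0.66, adjusted p = 0.000402), and *Cyba* was not (log2 fold change -0.74, SE 0.70, adjusted p = 0.420). Of the list of ligands and complement genes 6 of 9 were lower by limma and 1, *Apoe*, higher (log2 fold change 1.81, SE 0.33, adjusted p = 0.00290). *Csf1* had 225 and 141 CPM in preB-ALL (log2 fold change -5.01, SE 0.95, adjusted p = 0.00338). All 10 fibroblast genes tested and 7 of 11 B cell genes were lower in the lines, and 1 B cell gene was higher. Lower too were 5 of 9 myeloid transcription factors and 4 of 5 platelet and megakaryocyte genes, with 0 higher. Without the P190RagCreErg library 2 of the 6 calls were left in number, and with the mitochondrial genes left out, because preB-ALL has them at 0, there were 6.

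The 2 IgM-negative lines were compared with the 4 IgM-positive lines. By limma 0 of 9 members were called, and 0.597% of all tested genes were. *Cybb* and *Ncf1* had an unadjusted p under 0.05 by limma. Of the members edgeR called 0, and DESeq2, which also called more of all genes than limma did, called *Cybb*. *Cybb* had 3.45, 7.01, 0.986 and 2.59 CPM in 14_179_IgMp, 15_180_IgMp, 16_202_IgMp and 17_213_IgMp, and 0.0391 and 0 CPM in 18_214_IgMn and 19_216_IgMn (log2 fold change -4.61, SE 0.77, adjusted p = 0.0858). The groups did not overlap for *Cybb* and *Ncf1*, 2 of the 11 members with at least 10 reads over the lines, nor for 21.2% of all such genes, and *Cybb* passed the filter through the IgM-positive lines only. *Ncf1*, with 3.24, 1.42, 1.10 and 0.747 CPM against 0.195 and 0.431, had log2 fold change -1.88, SE 0.68, adjusted p = 0.381. Without 16_202_IgMp, 1 member was called, and the counts of all genes called with a line left out, given further below, moved too. The 3 members with the most reads, *Laptm5*, *Ctss* and *Cd68*, had log2 fold changes of -0.48, -0.52 and -0.53, and their groups overlapped. The further lists gave 0 calls by limma.

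The 4 sg*Bcl-2* MEF libraries were set against the 6 lymphoma lines, 2 cultured cell types that both carry *dCas9a-SAM* and sg*Bcl-2*. Of 12 members tested 4 were higher in MEFs and 5 lower, where 45% of all tested genes were higher and 36.3% lower, with a median of all genes of 0.27. In MEFs, *Sirpa* had 81.0 ± 6.79 CPM (SD, n = 4) against 2.07 ± 3.37 CPM (SD, n = 6) (log2 fold change 6.79, SE 1.03, adjusted p = 0.000111), *Cd14* 6.26 ± 0.308 CPM (SD, n = 4) (log2 fold change 5.96, SE 0.19, adjusted p = 3.61e-10), *Csf1r* 2.57 ± 0.228 CPM (SD, n = 4) (log2 fold change 4.50, SE 0.27, adjusted p = 5.83e-08) and *Lyz2* 1.83 ± 0.145 CPM (SD, n = 4) (log2 fold change 4.15, SE 0.15, adjusted p = 9.43e-10). In the lines, *Laptm5* had 153 ± 56.8 CPM (SD, n = 6) against 0.180 ± 0.193 CPM (SD, n = 4) (log2 fold change -9.15, SE 0.46, adjusted p = 1.25e-08) and *Ctss* 44.0 ± 20.1 CPM (SD, n = 6) (log2 fold change -7.63, SE 0.46, adjusted p = 5.60e-08). *Tyrobp* (log2 fold change -2.86, SE 0.57, adjusted p = 0.000787), *Ncf1* (log2 fold change -2.07, SE 0.61, adjusted p = 0.00882) and *Cybb* (log2 fold change -3.14, SE 1.14, adjusted p = 0.0260) were lower in MEFs too, although *Ncf1* and *Cybb* overlapped in CPM. *Cd68*, *Mpeg1* and *Mrc1* were not called. Of the 9 called, 7 passed the filter through 1 of the groups only. The same 4 MEF libraries enter the comparison with sgNT, and the same 6 lines enter the comparisons with tumours and preB-ALL, so these results share samples.

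Of the 34 genes, 1, *Cd68*, had 1 CPM or more in all 20 libraries, and 4 (*Cd163*, *Marco*, *Cx3cr1* and *Ccr2*) were under 1 CPM in all of them. The genes outside all lists whose CPM followed the summed CPM of the members most closely over the 20 libraries were *Gm20783* (Spearman's rho 0.944), *Rpain* (0.935), *Psme1* (0.929), *Kxd1* (0.928) and *Cnpy3* (0.926), of 15047 genes compared. Without *Laptm5* and *Ctss* in the sum they were *Bmyc* (0.945), *Lmbrd1*, *2810021J22Rik*, *Ifi207* and *Slc2a6*. The 20 points fall into groups of like cells, and the 2 lists of 5 share 0 genes.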

How the data were processed

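Alignment to GRCm38 was done by the authors with Rsubread, and counts per Entrez gene were deposited as CPM, with no log and no further scaling factor. From the CPM the whole reads were recovered (100% of values within 0.01 of a whole multiple of 1 read). All 20 columns were mapped to samples, with 0 left over. Symbols came from the RefSeq table of GRCm38.p6, which named 25242 of 25869 identifiers, and exon lengths from GENCODE vM21. No strand setting was stated, so overlapping genes are uncertain.

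The planned test for this unit was limma on log2(CPM + 0.1). Genes were kept by edgeR's filterByExpr and scaled by TMM, limma was run with lmFit and eBayes (trend on) on the groups compared, and Benjamini-Hochberg adjustment covered all kept genes, with a threshold of 0.05. Fold changes are on the log2(CPM + 0.1) scale, which understates those of low genes. Replicates are those of the labels. Libraries of 1 MEF line may be technical, and p-values then measure only their spread. Intervals of WT library 13 are exact 95% binomial intervals on reads. R 4.3.3, limma 3.58.1, edgeR 4.0.16, DESeq2 1.42.0, Python 3.11.15 and matplotlib 3.10.9 were used. The code was tested on simulated data.

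The members and lists were chosen with earlier results of these data known. By rule, called members are given in full if 10 or fewer, otherwise the 10 of largest change, then the 3 uncalled with most reads, the 3 of each list with most reads, and the 5 genes most like the members. Some list genes that this rule covers are not reported here. Alternatives were edgeR, DESeq2, limma-voom, pseudocount 0.5, no or RLE scaling, no filter, other sets of lines, replicate blocks and each replicate left out. The *dCas9a-SAM* MEF line numbers pair the sgNT and sg*Bcl-2* libraries of 1 cell line by the labels. The correlation of line differences across 13226 genes was 0.462 between these groups, but -0.0883 and -0.186 between the no-guide libraries of the same lines and the sgNT and sg*Bcl-2* libraries, and 0.218 between sg*Bcl-2* and WT, which share only a number. Columns of other samples were not used.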

Additional observations from a re-analysis of the deposited data

Results flagged for a closer look

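*Tyrobp* stood out in 1 lymphoma line. The line 14_179_IgMp had 2.96 CPM, far from the other 3 IgM-positive lines (0.187 to 0.498 CPM) and from all other 5 lines, of which 18_214_IgMn was next with 1.13 CPM. *Sirpa* stood out in 19_216_IgMn, at 8.79 CPM, where the other 5 lines had 0.0406 to 1.84 CPM. In all, 23 sets of values were examined in this way, and chance marks about 1 in 20.

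The effect of sg*Bcl-2* had opposite directions in the 2 MEF lines for *Cd14* and *Clec7a*. *Cd14* had 3.85 CPM with sgNT and 6.48 and 6.17 with sg*Bcl-2* in line 1, but 6.66 against 5.86 and 6.52 in line 2, and the group means differed by 1.00 CPM. *Clec7a* had 0.439 CPM with sgNT and 0.216 and 0.264 with sg*Bcl-2* in line 1, and 0.0828 against 0.242 and 0.729 in line 2, with means 0.102 CPM apart. With 1 sgNT library per line, the difference between the MEF lines was not tested.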

How the results depend on the processing

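Of 495 refits of the called members, 421 kept their direction and their call, 74 lost the call and 0 changed direction. Without the filter on low values, 19 of 33 members were called between tumours and lines (3246 of 19310 genes) and 14 of 28 between sg*Bcl-2* MEFs and lines (13738 of 20710 genes). Against the lines of the tumours' mice 0 were called, 13 (and 3600 of 12719 genes) with the replicate block by the titles and 0 with that by the descriptions. The replicate block by MEF line left 3 members called between sg*Bcl-2* and sgNT (3 with edgeR), and 0 between sgNT and WT MEFs, where WT and *dCas9a-SAM* lines share only a number (correlation 0.0925). DESeq2 called 1 member between IgM classes and 1 between sgNT and WT MEFs. With all 10 MEF libraries in the fit 0 were called between sg*Bcl-2* and sgNT.

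With each library left out in turn, the counts ranged from 4 (without tumour library 21) to 11 for tumours, 2 (without the P190RagCreErg library) to 6 for lines against preB-ALL, 0 to 1 (without 16_202_IgMp) for IgM classes, 0 to 25 (without WT library 11) for sgNT against WT MEFs, 1 (without either sgNT library) to 3 for sg*Bcl-2* against sgNT, and 7 to 9 for sg*Bcl-2* MEFs against lines. Without WT library 11, members could pass the filter through WT library 13 only, so that count was favoured by the filter. The counts of all genes called moved by over 1.5 times as well. For tumours 2579 became 42 and 0 against the same mice's lines without a block and with that by the descriptions, 1418 against the IgM-positive lines, and 934 and 807 without tumour library 20 and 21. Between IgM classes 74 became 749 with DESeq2, 24 with edgeR, 1 with limma-voom and 35 to 117 with a line left out. Between sgNT and WT MEFs 0 became 88 with DESeq2, 68 with all MEFs, 3 without an sgNT library, and 8424 and 1644 without WT library 11 and 13. Between sg*Bcl-2* and sgNT 1592 became 64 with all MEFs, 156 and 198 without an sgNT library and 960 without an sg*Bcl-2* library, and between lines and preB-ALL 6059 became 3177 without P190RagCreErg. Between sg*Bcl-2* MEFs and lines the median of all genes moved from 0.27 to 0.10 without scaling and 0.46 with RLE. Without *Laptm5* the mean summed CPM became 642.9 in WT library 13, 56.2 in the lines, 273 in the tumours and 181 in preB-ALL, and TMM scaling gave 623 in WT library 13. Alternatives chosen after seeing the data were the TMM-scaled count for WT library 13, the sum without *Laptm5* and *Ctss* (highest rho 0.945 in place of 0.944), the fit without mitochondrial genes and the edgeR block.

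In members under about 1 CPM depth sets the limit, and a value of 0 reads allows up to 3 reads. The cause of each change was not tested.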
